A study of Mus musculus with 21 samples.

Results

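Kisspeptin, neurokinin B and dynorphin are made together by a population of arcuate neurons (KNDy neurons) that drives the pulsed release of gonadotropin-releasing hormone (GnRH). Kiss1 encodes kisspeptin, Tac2 encodes neurokinin B and Pdyn encodes prodynorphin. Neurokinin B acts on these neurons through its receptor, the product of Tacr3, and dynorphin restrains them through the kappa opioid receptor, the product of Oprk1. Esr1 (estrogen receptor alpha) and Pgr (progesterone receptor) carry sex steroid feedback to this circuit, and Gnrh1 encodes GnRH itself. These 8 genes were chosen by name for their place in the circuit, with earlier results of these data known. All 8 were found among the 21654 genes of the deposited table.

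Expression was measured by polyA RNA-seq in punches of the ventral hypothalamus (VH, circumventricular hypothalamus in the labels). The punches came from male C57/B6J mice (C57BL/6J in the paper) that were 12 to 14 weeks old when acquired. Mice stayed on regular chow (RC NoDS, n = 5 libraries) or high-fat diet (HFD NoDS, n = 5), or underwent a diet switch (DS) a week before sacrifice, from chow to high-fat diet (RC → HFD, n = 6) or from high-fat diet to chow (HFD → RC, n = 5). All 4 groups were kept awake for 3 hours and sacrificed at ZT6, and each library pooled punches of 2 mice, so that the values of single animals were averaged in pairs. The authors re-sampled the libraries to a common depth, and the deposited reads per library lay between 16383073 and 16390286 in RC NoDS, 16383705 and 16390551 in RC → HFD, 16381363 and 16390598 in HFD → RC, and 16380781 and 16389102 in HFD NoDS.

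The arcuate nucleus was well represented in the punches. Of 6 arcuate markers, Pomc was the most abundant at a mean of 8304 reads per library, and none of the 6 was at 0 in any library. The punches also held neighbouring nuclei. All 4 ventromedial markers were read in every library, with Adcyap1 at a mean of 1483 reads and Nr5a1 at 1250.1 reads. Of 5 paraventricular and supraoptic markers, Avp averaged 10476 reads, Oxt 4796 and Trh 1336, but Sim1 only 41.4 reads and Crh 8.14 reads, with Crh at 0 in 7 of 21 libraries. Pdyn, Esr1 and Pgr are known to be made in some of these neighbours as well as in KNDy neurons, so their reads are those of the punch and not of KNDy neurons alone. The reads of the other members are also those of the punch, and their cells of origin were not resolved. In tissue of this kind, fewer cells of a type and less RNA per cell cannot be told apart.

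To compare levels between genes, reads were divided by the exonic length of each gene in kilobases (kb). Pdyn stood highest at 1396 ± 173 reads per kb (SD, n = 21), above 95.02% of the 12768 genes averaging at least 50 reads. Tac2 followed at 1179 ± 189 reads per kb, above 93.83% of these genes. Kiss1, the defining peptide of the circuit, lay far below both at 136 ± 47.5 reads per kb, near the median of all tested genes (146 reads per kb). Then came Pgr at 88.9 ± 13.8, Gnrh1 at 85.5 ± 46.5, Oprk1 at 64.1 ± 11.9, Tacr3 at 45.4 ± 10.7 and Esr1 at 33.4 ± 7.64 reads per kb. Tac2 and Kiss1 were separated by several SDs of either gene, and Oprk1 lay above Tacr3, and Tacr3 above Esr1, by more than the SD of each, while Gnrh1 varied too widely to be placed between its neighbours. The long exonic annotation of Esr1, 13678 bases, lowers its value on this scale.

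Kiss1 (ENSMUSG00000091251, chr1:135218452-135226478, plus strand, NCBIM37, protein coding, 3 exon blocks) was read 50 to 162 times per library. In RC NoDS the 5 libraries held 157, 95, 59, 148 and 154 reads. In RC → HFD the lowest, median and highest of 6 libraries were 62, 79 and 139 reads. The spread within a group was thus nearly as wide as that over all libraries. HFD → RC held 91, 139, 50, 87 and 162 reads, which included both the lowest and the highest library of all 21, and HFD NoDS held 156, 112, 112, 98 and 70 reads. Group means ran from 88.5 ± 30.7 reads in RC → HFD through 106 ± 44.6 in HFD → RC and 109.6 ± 31.1 in HFD NoDS to 123 ± 43.6 in RC NoDS, and neighbours in that order differed by less than the SD of either. The 5′ end of Kiss1 overlaps Golt1a on the same strand over 1152 bases, so reads from that stretch cannot be assigned to Kiss1 with certainty.

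Tac2 (ENSMUSG00000025400, chr10:127162448-127168823, plus strand, protein coding) was steadier than Kiss1, with a biological coefficient of variation (BCV, the spread between libraries beyond read sampling) of 14.8% against 33.9% for Kiss1 and a median of 14.8% over all tested genes. Its reads were 985, 755, 690, 1025 and 878 in RC NoDS, and 661, 972, 626, 918 and 759 in HFD → RC. RC → HFD ranged from 555 to 889 with a median of 758, and HFD NoDS held 887, 685, 897, 914 and 752. The order of the group means was the same as for Kiss1, with 738 ± 111 reads in RC → HFD, 787 ± 153 in HFD → RC, 827 ± 102 in HFD NoDS and 867 ± 144 in RC NoDS, and again neighbours differed by less than the SD of either. The 2 highest libraries of all 21 belonged to RC NoDS and the lowest to RC → HFD, but all groups overlapped.

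Pdyn (ENSMUSG00000027400, chr2:129512301-129525580, minus strand, protein coding) varied least of the 8 genes, with a BCV of 10.6%. In RC NoDS its reads were 4246, 4410, 4033, 4467 and 4100, and in RC → HFD they ran from 3628 to 4550 with a median of 4385. HFD NoDS held 4017, 3655, 3826, 4565 and 4405 reads. HFD → RC was split, with 2812, 3516 and 2902 reads in replicates 13, 15 and 17 and 4107 and 4160 reads in replicates 14 and 16. The first 3 lay below each of the 16 libraries of the other groups, whose lowest was 3628, while the other 2 lay well inside their range. The mean of HFD → RC was accordingly the lowest and its SD the widest, 3499 ± 639 reads, against 4094 ± 384 in HFD NoDS, 4236 ± 367 in RC → HFD and 4251 ± 189 in RC NoDS. Neighbouring means differed by less than the larger of their SDs. Replicate 13 of HFD → RC also stood apart in Gh, a hormone of the anterior pituitary, with 2003 reads against a median of 1 over all libraries, and its 6 pituitary markers summed to 2874 reads against 57 to 282 in the other HFD → RC libraries. Replicate 15 had the highest sum of the 4 ventromedial markers of all libraries, 6409 reads, and replicate 17 the largest share of weakly expressed genes at 0 in its group, 31.9% of 3116 genes averaging from 5 to under 50 reads. The high libraries had such traits too. That share was 20.5% in replicate 14 and 15.1% in replicate 16, against 9.24% in replicate 13 and 5.68% in replicate 15. Replicate 14 also had the highest sum of paraventricular and supraoptic markers in its group, 26851 reads. Over all 21 libraries, with group means removed, Pdyn had r = −0.46 with the 4 pituitary markers averaging at least 50 reads (permutation p = 0.0804, adjusted 0.279), and r = 0.053 without the 2 libraries farthest in those markers. With the 2 lateral hypothalamic markers (Hcrt and Pmch) Pdyn had r = −0.47 (permutation p = 0.0142, adjusted 0.0938). For that relation rho was −0.58 (permutation p = 0.00893, adjusted 0.0625), and r was −0.52 without the 2 farthest libraries. The part of these differences in the low Pdyn values was not tested.

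The receptors of these peptides were read less often. Tacr3 (ENSMUSG00000028172, chr3:134491971-134597545, plus strand) had 94 to 265 reads and a BCV of 22.8%. Its means from low to high were 147 ± 38.9 reads in RC → HFD, 162 ± 27.2 in HFD → RC, 176 ± 26.1 in RC NoDS and 204 ± 49.5 in HFD NoDS, each step smaller than the larger SD. Of the 5 HFD NoDS libraries 3 exceeded every library of the other groups, with 238, 265 and 206 reads, and the other 2 held 154 and 155. Oprk1 (ENSMUSG00000025905, chr1:5578574-5596212, plus strand) had 299 to 583 reads and a BCV of 17.4%. Its means were 389 ± 61.0 reads in HFD NoDS, 445 ± 100.3 in HFD → RC, 457 ± 80.6 in RC → HFD and 459.6 ± 82.5 in RC NoDS. These steps too were smaller than the SDs, and all 4 groups overlapped.

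The steroid receptors are described next. Esr1 (ENSMUSG00000019768, chr10:5340927-5734948, minus strand in NCBIM37) had 601, 524, 474, 633 and 442 reads in RC NoDS, and its lowest, median and highest values in RC → HFD were 299, 394 and 604. HFD → RC held 407, 497, 326, 525 and 469 reads and HFD NoDS 352, 314, 630, 517 and 405. The mean of RC NoDS, 535 ± 81.3 reads, exceeded the next one, 445 ± 79.5 in HFD → RC, by slightly more than either SD, whereas HFD → RC, HFD NoDS (444 ± 129) and RC → HFD (412 ± 106) did not differ by more than theirs. The libraries of RC NoDS nevertheless overlapped those of each other group. Pgr (ENSMUSG00000031870, chr9:8900419-8965425, plus strand) had similar means throughout, from 388 ± 25.9 reads in HFD NoDS through 423 ± 108 in HFD → RC and 442 ± 40.0 in RC NoDS to 442 ± 64.5 in RC → HFD. Neighbouring means differed by less than the larger SD, and what set the groups apart by eye was their spread, which was not tested. The 5 HFD → RC libraries held 422, 530, 287, 528 and 346 reads, which put 2 of them above and 2 below every library of the other groups, while HFD NoDS stayed between 358 and 414.

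Gnrh1 (ENSMUSG00000015812, chr14:68363286-68367492, plus strand) is made mainly by scattered neurons rostral to these punches, whose axons reach the median eminence below the arcuate nucleus. It was read in all 21 libraries but at a mean of only 44.6 reads, under the minimum of 50 set for the main test. Its reads were 44, 39, 49, 32 and 81 in RC NoDS, 56, 37, 53, 13 and 11 in HFD → RC, and 10, 105, 35, 71 and 76 in HFD NoDS, and in RC → HFD they ran from 21 to 62 with a median of 35.5. HFD NoDS therefore held both the lowest and the highest library of the series. The BCV of 53.3% was the highest among the 8 genes, against a median of 17.6% over the 15884 genes averaging at least 5 reads. Libraries also differed in how many weakly expressed genes they captured. Of 3116 genes averaging from 5 to under 50 reads, 1.12% to 7.22% were at 0 in RC NoDS libraries, 2.31% to 22.4% in RC → HFD, 5.68% to 31.9% in HFD → RC and 7.7% to 32.9% in HFD NoDS. The HFD NoDS library with 105 Gnrh1 reads had the highest share, 32.9%, while the HFD → RC library with 11 Gnrh1 reads had nearly the same, 31.9%, and the part of this in the spread of Gnrh1 was not tested.

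**Figure D1:**
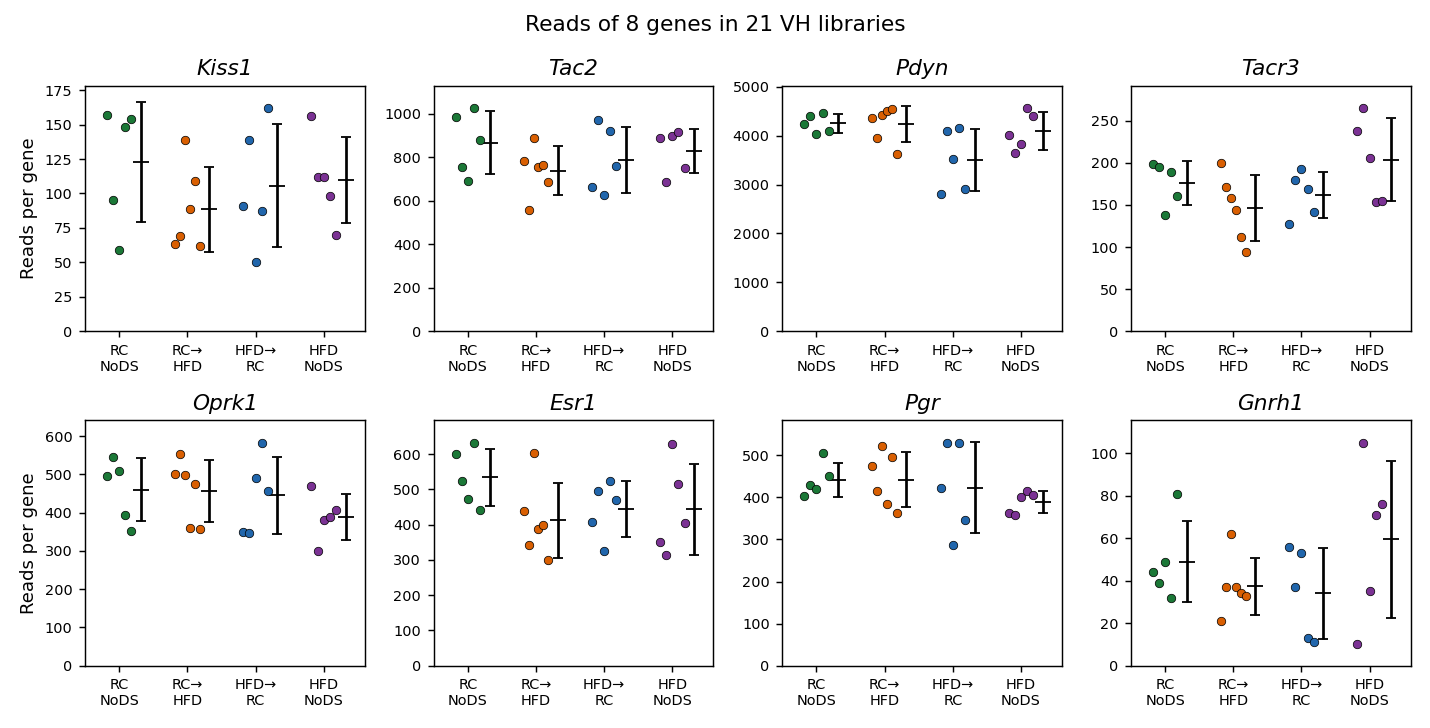
Reads per gene (vertical axis, from 0) of the 8 genes in each of the 21 libraries, by diet group (horizontal axis); points are libraries and bars are the group mean ± SD. Groups overlap in every panel, and 3 HFD → RC libraries of Pdyn lie below the lowest library of the other groups (3628 reads).

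The first comparison asked which genes differ between mice kept on HFD and mice kept on RC. No member was called (edgeR quasi-likelihood F-test, Benjamini-Hochberg adjusted over all genes, threshold 0.15), and 0 of the 7 tested members had an unadjusted p under 0.05. Over all 12768 genes 0.0783% were called, 7.41% had an unadjusted p under 0.05 and 0.893% had libraries that did not overlap between the groups, which held for 0 members. Log2 fold changes of HFD NoDS relative to RC NoDS were −0.14 (SE 0.32) for Kiss1, −0.050 (SE 0.13) for Tac2 and −0.037 (SE 0.092) for Pdyn. The receptors ranged more widely, with 0.23 (SE 0.21) for Tacr3, −0.22 (SE 0.16) for Oprk1, −0.25 (SE 0.18) for Esr1 and −0.17 (SE 0.14) for Pgr. The smallest of their adjusted p-values was 0.735 (edgeR, Esr1). Gnrh1, fitted with all genes averaging at least 5 reads, had 0.29 (SE 0.51, adjusted p = 0.94). How large a difference these libraries leave possible varies with the gene. The 95% interval of the fold ran from 0.855 to 1.11 for Pdyn and from 0.798 to 1.17 for Tac2, but from 0.576 to 1.43 for Kiss1 and from 0.596 to 2.51 for Gnrh1. With 1 library left out, log2 fold changes ranged from −0.32 to −0.013 for Kiss1 and −0.076 to −0.0061 for Pdyn. Ranges for receptors were 0.11 to 0.32 for Tacr3, −0.31 to −0.15 for Oprk1, −0.41 to −0.16 for Esr1 and −0.20 to −0.11 for Pgr.

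The second comparison set the DS groups, a pair that the feeding design brings to similar body weights from opposite sides, against each other. Pdyn had the lowest unadjusted p of the 7 tested members. It was 0.83-fold in HFD → RC relative to RC → HFD (95% interval 0.728 to 0.937), a log2 fold change of −0.28 (SE 0.089), with an adjusted p of 0.798 by edgeR. Of the 5 HFD → RC libraries 3 were below every RC → HFD library and 2 were not. With each library left out in turn, the log2 fold change of Pdyn stayed between −0.34 and −0.21 and its adjusted p between 0.184 and 1.00, the smallest change without HFD → RC replicate 13. Thus 1 of 7 members had an unadjusted p under 0.05, beside 5.35% of all genes, 0 members were called, beside 0.00783%, and 0 members had groups without overlap, beside 0.486%. The other log2 fold changes of HFD → RC relative to RC → HFD were 0.25 (SE 0.31) for Kiss1, 0.091 (SE 0.13) for Tac2, 0.15 (SE 0.21) for Tacr3, −0.039 (SE 0.15) for Oprk1, 0.11 (SE 0.17) for Esr1 and −0.066 (SE 0.14) for Pgr, with adjusted p-values of 1.00. Gnrh1 had −0.13 (SE 0.49) among genes averaging at least 5 reads. With 1 library left out, log2 fold changes ranged from 0.054 to 0.43 for Kiss1 and 0.0011 to 0.16 for Tac2. Those of Tacr3 ranged from 0.051 to 0.26 and those of Esr1 from 0.034 to 0.25.

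A week of HFD in mice kept on RC was tested as RC → HFD relative to RC NoDS. The member with the smallest unadjusted p was Esr1, with a log2 fold change of −0.35 (SE 0.17), a fold of 0.784 (95% interval 0.615 to 0.999) and an adjusted p of 0.765 (edgeR). Its interval all but reached 1, and across the alternatives its adjusted p ran from 0.467 to 1.00. That was 1 of 7 members at an unadjusted p under 0.05, where 6.51% of all genes were. Members called numbered 0, beside 0.0392% of genes, and members without overlap 0, beside 1.17%. Kiss1 had a larger but less certain log2 fold change of −0.44 (SE 0.31), a fold of 0.735 (95% interval 0.475 to 1.14). The others were −0.21 (SE 0.13) for Tac2, 0.020 (SE 0.088) for Pdyn and −0.24 (SE 0.21) for Tacr3. Oprk1 had 0.018 (SE 0.15), Pgr 0.026 (SE 0.14) and Gnrh1, among genes averaging at least 5 reads, −0.37 (SE 0.49). In the same comparison the 4 ventromedial markers summed to 3342 ± 748 reads in RC NoDS and 4303 ± 720 reads in RC → HFD. Their log2 fold changes had a median of 0.37, and 3 of 4 were positive. By edgeR 0 of 4 were called, with 1 (Nr5a1) at an unadjusted p under 0.05. Adcyap1 was the most abundant of them, none was at 0 in any library, and the share of weakly expressed genes at 0 was 3.22 ± 2.42% in RC NoDS and 11.9 ± 8.82% in RC → HFD. The part of either in the Esr1 difference was not tested.

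A week of RC in mice kept on HFD was tested as HFD → RC relative to HFD NoDS. Pdyn again had the smallest unadjusted p (adjusted p 0.564 by edgeR), with a log2 fold change of −0.22 (SE 0.092) and a fold of 0.86 (95% interval 0.754 to 0.980). This comparison shares its HFD → RC libraries with the one between the DS groups. The other peptide genes had log2 fold changes of −0.049 (SE 0.32) for Kiss1 and −0.064 (SE 0.13) for Tac2. Receptors had −0.32 (SE 0.21) for Tacr3, 0.20 (SE 0.16) for Oprk1, 0.012 (SE 0.18) for Esr1 and 0.13 (SE 0.14) for Pgr. Gnrh1, among genes averaging at least 5 reads, had −0.79 (SE 0.51, adjusted p = 0.766 by edgeR). Again 1 of 7 members had an unadjusted p under 0.05, where 7.93% of genes did. No member was called, beside 0.0705% of genes, and no member had groups without overlap, beside 1.02%. In the same comparison all 6 arcuate markers had an unadjusted p under 0.05, and 2 of them (Cartpt and Npy) were called by edgeR. Their log2 fold changes had a median of −0.35, and 2 of 6 were positive. The part of this in the Pdyn difference was not tested.

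Across all 4 groups together no member was called, beside 0.149% of genes, and 1 of 7 (Pdyn, adjusted p = 0.549 by edgeR) had an unadjusted p under 0.05, beside 7.97% of genes. The interaction, which asked whether the difference made by current HFD depended on the earlier diet, called 0 members, beside 0.0313% of genes. At an unadjusted p under 0.05 it took 0 of 7 members, beside 8.84% of genes. The closest was Tacr3, with −0.57 (SE 0.30, adjusted p = 0.602 by edgeR), which is the log2 fold change of current HFD relative to current RC after earlier RC minus that after earlier HFD. Limma-voom called 0 members in these 6 comparisons, in the order described, where it called 10, 1, 5, 12, 13 and 15 of all genes. DESeq2 called 0 members where it called 17, 5, 96, 44, 133 and 116 of all genes. For RC → HFD against RC NoDS, however, its own filter on mean counts left 6 of the 7 members, all but Pdyn, without an adjusted p. Adjusted over all 12768 genes, DESeq2 called 15 genes and 0 members there, the lowest adjusted p of a member being 0.723. The median log2 fold change of the 7 members was −0.14 for HFD NoDS against RC NoDS (1 of 7 positive), 0.091 between the DS groups (4 of 7), −0.21 for RC → HFD against RC NoDS (3 of 7) and −0.049 for HFD → RC against HFD NoDS (3 of 7). The medians of all tested genes were 0.0065, 0.00012, −0.00094 and 0.0047 in that order. At no comparison did the share of members stand clear of the share of all genes, given that a single member is 1 of 7.

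Some members varied together from library to library within groups. Correlations were computed over the 21 libraries for all 21 pairs of the 7 members averaging at least 50 reads, on log2 CPM (counts scaled to a common library size) from which each group's mean had been subtracted, and p-values came from 100000 permutations within groups (two-sided). With Benjamini-Hochberg adjustment over the 21 pairs, 3 pairs had an adjusted p under 0.05 for Pearson's r. All 3 were positive: Kiss1 with Tac2, Tac2 with Esr1 and Esr1 with Pgr. Among all 81504528 pairs of the 12768 genes, 1.24% had an r at least as high as Kiss1 with Tac2, 0.571% as high as Tac2 with Esr1 and 1.73% as high as Esr1 with Pgr, so that many gene pairs in these libraries are as closely related. The libraries share their depth, and each stands for 2 mice.

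Tac2 and Esr1 were the most closely related pair. Pearson's r was 0.71 (permutation p = 0.00074, adjusted 0.00777) and Spearman's rho 0.76 (permutation p = 0.00025, adjusted 0.00525). Without the 2 libraries farthest from the median of Tac2, r was 0.72 (adjusted permutation p = 0.0149), and with any 1 library left out it stayed between 0.67 and 0.77. Esr1 and Pgr, the 2 steroid receptors, had r = 0.62 (permutation p = 0.00072, adjusted 0.00777) and rho = 0.66 (permutation p = 0.00137, adjusted 0.0144), and r = 0.65 without the 2 libraries farthest in Esr1 (adjusted permutation p = 0.0381). Both pairs kept an adjusted p under 0.05 in each of the 21 fits that left 1 library out.

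Kiss1 and Tac2, the excitatory peptides of the same neurons, were related less firmly. Their r was 0.65 (permutation p = 0.00587, adjusted 0.0411) and their rho 0.59 (permutation p = 0.0145, adjusted 0.0678). Without RC NoDS replicate 3 and HFD → RC replicate 15, the libraries with the least Kiss1 relative to their groups, r was 0.50 and the adjusted permutation p 0.187. With 1 library left out at a time r stayed between 0.58 and 0.71, and the adjusted permutation p was under 0.05 in 10 of 21 cases. It was over 0.05, and at most 0.11, without RC NoDS replicate 1, 2, 3, 5 or 6, RC → HFD replicate 9, 11 or 12, HFD → RC replicate 14 or 15, or HFD NoDS replicate 24. Tac2 and Pgr missed the threshold narrowly (r = 0.63, permutation p = 0.0109, adjusted 0.0574; rho = 0.64, permutation p = 0.00726, adjusted 0.0508; r = 0.68 without the 2 farthest libraries).

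Pdyn did not move with Kiss1, although KNDy neurons make both. Their r was 0.029 (permutation p = 0.923, adjusted 0.969) and rho 0.018 (permutation p = 0.948, adjusted 0.948), and r was 0.010 without the 2 libraries farthest in Kiss1. Pdyn was closer to Tac2 (r = 0.56, permutation p = 0.0286, adjusted 0.12; rho = 0.58, permutation p = 0.0161, adjusted 0.0678; r = 0.55 without the 2 farthest libraries). Its relation to Pgr had a like r of 0.56 but a permutation p of 0.117 (adjusted 0.308; rho = 0.61, permutation p = 0.0244, adjusted 0.0853). Without HFD → RC replicates 13 and 17 that r was 0.65, with an adjusted permutation p of 0.0381, against a range of adjusted p from 0.0381 to 0.56 over all alternatives. The receptors Tacr3 and Oprk1 had r between −0.23 and 0.25 with every other member, and none of their pairs had an adjusted p under 0.05. With 1 library left out these r lay between −0.34 (Kiss1 and Oprk1) and 0.46 (Pdyn and Oprk1), again with no adjusted p under 0.05. Whether one pair's correlation differs from another's was not tested.

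**Figure D2:**
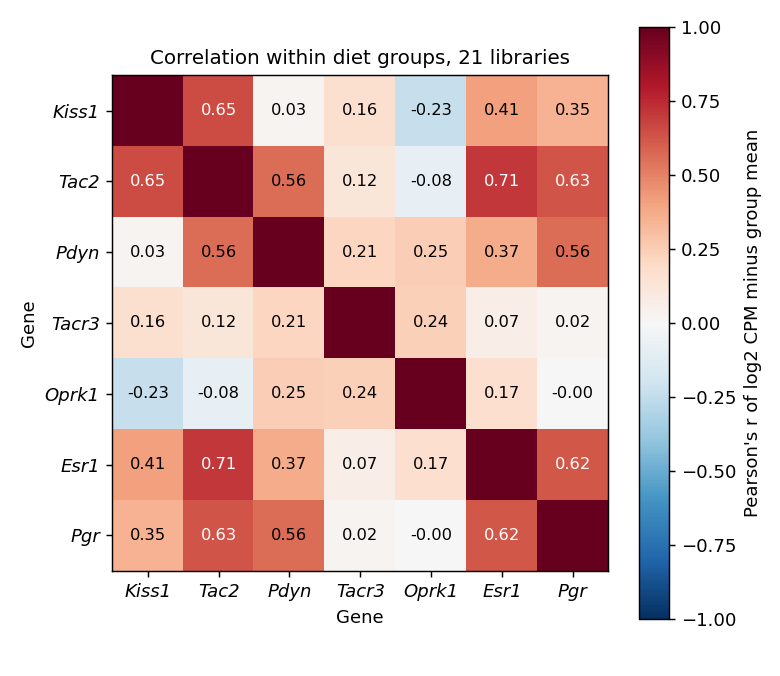
Pearson's r between 7 genes (both axes) over 21 libraries, on log2 CPM minus the group mean; colour runs from −1 (blue) to 1 (red) and each cell gives its r. The highest value is 0.71, for Tac2 and Esr1, followed by 0.65 for Kiss1 and Tac2, and Tacr3 and Oprk1 stay between −0.23 and 0.25.

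**Figure D3:**
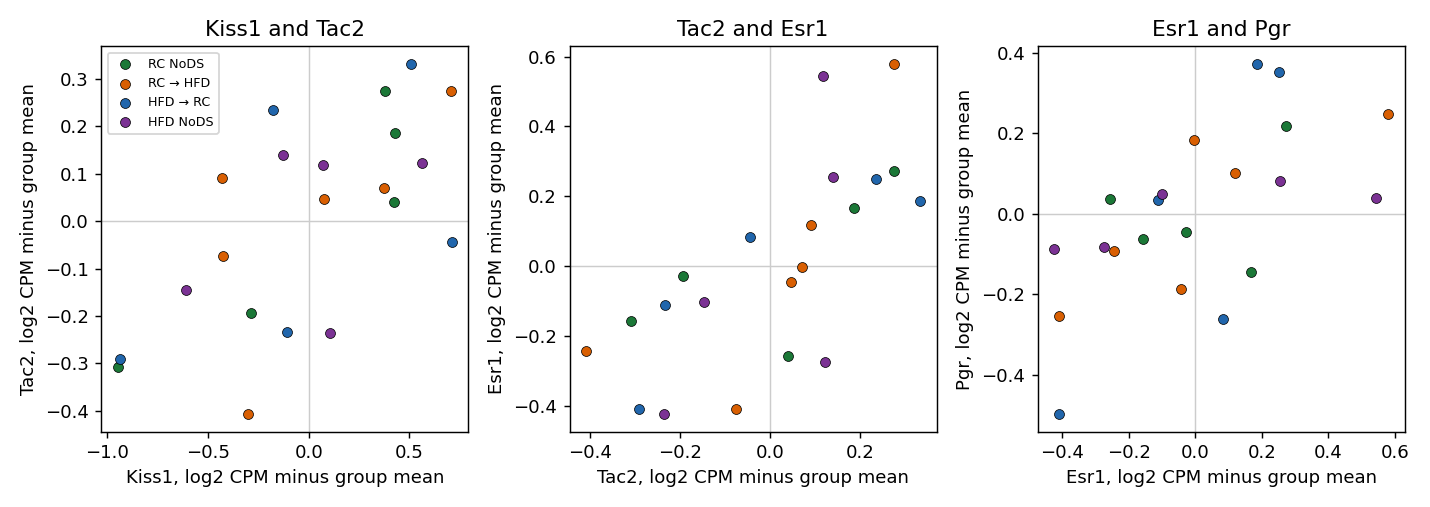
The 3 pairs with an adjusted p under 0.05, each point a library coloured by diet group, on log2 CPM minus the group mean (both axes); grey lines mark the group means. Taken over all libraries, points run from the lower left to the upper right, with r of 0.65, 0.71 and 0.62 from left to right. Within single groups the trend was not tested, and RC NoDS shows little of it for Esr1 and Pgr.

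Markers of the nuclei in the punch moved with some of these genes, as computed after the correlations between members had been seen. The mean log2 CPM of each of 6 marker lists with at least 2 tested genes was set against each of the 7 members in the same way, giving 42 relations. Tac2 followed the 6 arcuate markers (r = 0.73, permutation p = 0.00156, adjusted 0.0218; rho = 0.67, permutation p = 0.0041, adjusted 0.0405; r = 0.56 without the 2 libraries farthest in the markers). The reads of these markers summed to between 11879 and 23791 per library, and RC → HFD replicate 8 had both the lowest sum and the fewest Tac2 reads. Kiss1 had r = 0.56 with the same list (permutation p = 0.0226, adjusted 0.105; rho = 0.51, permutation p = 0.0342, adjusted 0.131; r = 0.52 without the 2 farthest libraries).

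Esr1 and Pgr ran against the ventromedial markers. For Esr1 r was −0.78 (permutation p = 0.00043, adjusted 0.00903) and rho −0.83 (permutation p = 8e-05, adjusted 0.00336), with r = −0.69 without the 2 farthest libraries. For Pgr r was −0.58 (permutation p = 0.00021, adjusted 0.00882) and rho −0.56 (permutation p = 0.00388, adjusted 0.0405), with r = −0.47 without those libraries. The 4 ventromedial markers summed to between 2262 and 6409 reads per library. The 2 libraries with the highest sums, HFD → RC replicate 15 with 6409 and HFD NoDS replicate 20 with 5733, had the fewest Esr1 reads of their groups, 326 and 314. None of the 4 was at 0 in any library. By Spearman's rho 2 further relations had an adjusted permutation p under 0.05, Tac2 with the ventromedial markers (rho = −0.61, adjusted 0.0405; r = −0.56, adjusted 0.0685) and Oprk1 with the paraventricular and supraoptic markers (rho = −0.65, adjusted 0.0405; r = −0.59, adjusted 0.0685). The part of such differences between punches in the correlations among members was not tested.

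The genes most like each member were taken as the 3 with the highest r over the 21 libraries, by the same measure among 12768 genes, as a description without a test. Kiss1 was most like Tbx3 (r = 0.78), S100a6 (0.78) and Rax (0.77). Tbx3 is also 1 of the 6 arcuate markers. Tac2 was the 49th gene in the ranking of Kiss1, and Kiss1 the 53rd in that of Tac2. Tac2 was most like Gpx3 (0.88), a secreted glutathione peroxidase, Ecel1 (0.88), a membrane protease of neurons, and Vat1 (0.82). Esr1 stood 30th in the ranking of Tac2 and Pgr 66th. Pdyn was most like Ntng2 (0.83), Kcnk2 (0.80), a potassium channel, and Synrg (0.79), and Kiss1 came only 6084th in its ranking.

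Among the receptors, Esr1 was most like Gpr101 (0.86), an orphan receptor of the hypothalamus, Bicd1 (0.85) and Rybp (0.805), with Tac2 in 43rd place. Pgr was most like Parp4 (0.85), Vwa5a (0.82) and Cdc45 (0.80), with Tac2 in 81st and Esr1 in 94th place. Tacr3 was most like Zbtb44 (0.76), Usp13 (0.73) and Atxn1 (0.70), and Oprk1 most like Ubr1 (0.87), AW551984 (0.86) and Cntn3 (0.85). No member was among the first 3 of another. For scale, the 99th percentile of r over all genes lay between 0.509 for Tacr3 and 0.727 for Oprk1.

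Promoter sequences are shown for Kiss1, Tac2, Esr1 and Pgr, the members found in at least 1 of the 3 pairs past the threshold. RefSeq promoters (GRCm38.p6, 250 bases before to 50 after a gene's start) were matched by symbol for 6 of the 8 members, giving 8 promoters. They were searched on both strands for GGTCA, the half-site of the estrogen response element, which reads TGACC on the other strand. It was found in 2 of the 8 promoters, and in 40.5% of all 32851 promoters of the same length. Kiss1 had 2 matches, at bases 186 and 215 of the window, and 10.8% of all promoters had at least 2. The first Esr1 promoter had 1 match, at base 266, and none was found in this window of Tac2, Pgr, Pdyn, Tacr3 or the other Esr1 promoter. Esr1 lies on the minus strand in NCBIM37, the build of the counts, and on the plus strand in GRCm38.p6, and its promoters were matched by symbol alone. A match is a run of letters and not a site of binding. The sequences are given 5′ to 3′ on the plus strand, with matches in capitals.
Kiss1, chr1:133326962-133327261: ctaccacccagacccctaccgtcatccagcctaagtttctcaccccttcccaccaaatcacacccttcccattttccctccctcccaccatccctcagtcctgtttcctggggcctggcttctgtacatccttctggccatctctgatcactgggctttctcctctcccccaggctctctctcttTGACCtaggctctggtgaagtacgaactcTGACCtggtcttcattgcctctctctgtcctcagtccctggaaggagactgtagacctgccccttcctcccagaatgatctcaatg
Tac2, chr10:127724228-127724527: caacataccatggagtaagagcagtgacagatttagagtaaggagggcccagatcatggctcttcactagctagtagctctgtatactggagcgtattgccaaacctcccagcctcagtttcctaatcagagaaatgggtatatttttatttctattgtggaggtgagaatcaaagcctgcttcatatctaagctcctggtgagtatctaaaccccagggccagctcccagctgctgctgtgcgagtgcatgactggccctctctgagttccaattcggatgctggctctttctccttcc
Esr1, chr10:4611739-4612038: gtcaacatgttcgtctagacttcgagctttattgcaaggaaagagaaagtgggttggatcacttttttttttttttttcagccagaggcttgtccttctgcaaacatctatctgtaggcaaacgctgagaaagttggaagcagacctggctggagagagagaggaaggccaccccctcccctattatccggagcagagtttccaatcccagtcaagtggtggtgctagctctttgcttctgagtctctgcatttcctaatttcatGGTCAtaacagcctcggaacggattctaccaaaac
Pgr, chr9:8899583-8899882: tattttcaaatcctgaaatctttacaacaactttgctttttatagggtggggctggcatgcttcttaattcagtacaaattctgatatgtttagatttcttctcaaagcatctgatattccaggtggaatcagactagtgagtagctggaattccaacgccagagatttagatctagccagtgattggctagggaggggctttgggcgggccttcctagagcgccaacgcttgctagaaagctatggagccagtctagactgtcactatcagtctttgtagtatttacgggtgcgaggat

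Other genes of the same pathways were described from 6 lists of 52 genes, of which 50 were in the table and 37 averaged at least 50 reads. None of the 37 was called in any of the 6 comparisons by edgeR. Unadjusted p-values under 0.05 numbered 6 in HFD NoDS against RC NoDS (Cpe, Hsd17b12, Srd5a1, Ghsr, Mc3r and Prlr) and 2 between the DS groups (Tacr1 and Prlr), which is 16.2% and 5.41% of the 37 beside 7.41% and 5.35% of all genes. For RC → HFD against RC NoDS there were 5 (Npvf, Pcsk2, Hsd17b12, Ghsr and Lepr) and for HFD → RC against HFD NoDS 3 (Kiss1r, Cpe and Lepr), or 13.5% and 8.11% beside 6.51% and 7.93% of all genes. Across all 4 groups there were 5 (Cpe, Pcsk2, Ghsr, Lepr and Prlr), and in the interaction 4 (Npvf, Pcsk2, Pnoc and Lepr), or 13.5% and 10.8% beside 7.97% and 8.84%. No test compared these shares.

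Partners of kisspeptin and GnRH were led by Kiss1r, the kisspeptin receptor, at a mean of 162 reads, and Npffr1, the receptor of the RFamide peptide that opposes kisspeptin, at 126 reads. Kiss1r had a log2 fold change of −0.56 (SE 0.27) in HFD → RC relative to HFD NoDS (adjusted p = 0.617 by edgeR). Its means were 129.6 ± 43.9 reads in HFD → RC and 192 ± 86.1 in HFD NoDS, where replicate 20 held 341. How far that library carries the difference was not tested. Npvf, which encodes that RFamide peptide, had 1.09 (SE 0.41) in RC → HFD relative to RC NoDS (adjusted p = 0.685 by edgeR). The GnRH receptor gene Gnrhr averaged 1.9 reads, with a median of 0. Among tachykinins, Tac1, the substance P precursor, averaged 1313 reads and its receptor gene Tacr1 247 reads. Tacr1 had a log2 fold change of 0.40 (SE 0.17) in HFD → RC relative to RC → HFD (adjusted p = 0.899 by edgeR).

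The opioid list held the enzymes that cut and trim prodynorphin. Cpe (carboxypeptidase E) averaged 26606 reads and Pcsk2 (prohormone convertase) 4506 reads. Pcsk2 had a log2 fold change of 0.23 (SE 0.070) in RC → HFD relative to RC NoDS (adjusted p = 0.574 by edgeR), and Cpe 0.16 (SE 0.058) in HFD → RC relative to HFD NoDS (adjusted p = 0.53 by edgeR). Among steroid receptors and their coregulators, Pgrmc1 averaged 8178 reads, and 0 of 10 tested genes had an unadjusted p under 0.05 in any comparison. Esr2, the gene of estrogen receptor beta, averaged 13.2 reads, under the minimum. Of the steroid-converting enzymes, Hsd17b4 averaged 1280.3 reads and Hsd17b12 1233 reads, and aromatase (Cyp19a1) averaged 12.8. Hsd17b12 had a log2 fold change of −0.29 (SE 0.10) in HFD NoDS relative to RC NoDS (adjusted p = 0.64 by edgeR). Receptors for metabolic hormones were led by Nr3c1 at 1786 reads and Insr at 938 reads, and neither had an unadjusted p under 0.05. Others of the 8 came closer to the threshold. Ghsr, the ghrelin receptor gene, had a log2 fold change of −0.94 (SE 0.22, adjusted p = 0.175 by edgeR) in HFD NoDS and −0.81 (SE 0.21, adjusted p = 0.408 by edgeR) in RC → HFD, both relative to RC NoDS.

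The 6 arcuate markers, in the same punches, included genes that did pass the test. Npy was lower in HFD NoDS than in RC NoDS (log2 fold change −1.26, SE 0.16, adjusted p = 7.79e-05 by edgeR) and Agrp likewise (−0.97, SE 0.20, adjusted p = 0.0507 by edgeR). Cartpt was higher (0.89, SE 0.13, adjusted p = 0.00093 by edgeR). In the same comparison the estimates for Kiss1 and Tac2, made by other neurons of the nucleus, were −0.14 and −0.050. In the paraventricular and supraoptic list, Trh was higher in HFD NoDS (1.79, SE 0.17, adjusted p = 2.36e-07 by edgeR). Which nucleus its reads came from was not tested. Hcrt of the lateral hypothalamic list was higher too (2.71, SE 0.56, adjusted p = 0.0513 by edgeR). Hcrt averaged 478 ± 430 reads in HFD NoDS, where replicate 20 held 1051, and 74.4 ± 29.6 in RC NoDS. Across all 4 groups it was not called by edgeR. The paper reports Hcrt as similar in all conditions, and its punches were meant to leave out the lateral hypothalamus. No tested gene of the ventromedial, striatal and amygdalar, anterior pituitary or choroid plexus lists was called in any comparison by edgeR. Tested were 4 of 4 ventromedial, 3 of 4 striatal and amygdalar, 4 of 6 pituitary and 1 of 4 choroid plexus genes. The 3 habenular markers all averaged under 50 reads and were not tested.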

How the data were processed

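The authors aligned reads to mm9 with STAR 2.5.1b, merged runs with Picard 2.7.1, removed ribosomal and mitochondrial reads and re-sampled libraries to equal depth with PORT. They deposited whole-number counts of reads per gene, used here as they stand. Each library pooled 2 mice, depth was 16380781 to 16390598 reads (read sampling alone gives a CV of 1.58% for Pdyn, 9.72% for Kiss1 and 15.0% for Gnrh1), and no pair of libraries was identical. Whether counting used strand is not given in the sources used here.

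Counts were scaled by TMM and tested with edgeR 4.0.16 (quasi-likelihood F-test, R 4.3.3) with 1 mean per group over all 21 libraries, for the 12768 genes averaging at least 50 reads (High Filter). P-values were adjusted over all of them (Benjamini-Hochberg, threshold 0.15). Standard errors were the log2 fold change divided by the root of F. Gnrh1 was fitted with the 15884 genes averaging at least 5 reads (Low Filter). Correlations used log2 CPM with a prior count of 1 and Python 3.11.15 with numpy 2.4.6, pandas 2.3.3 and scipy 1.17.1. Figures used matplotlib 3.10.9. Exonic lengths came from a GENCODE annotation of NCBIM37. Alternatives were DESeq2 1.42.0 (with its own filter and adjusted over all genes), limma-voom (limma 3.58.1), other filters, no TMM, a robust dispersion, only the groups compared and each library left out. Scripts were tested on simulated data.

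Members and gene lists were chosen with earlier results of these data known. Genes named were the members, called genes of the lists or else up to 2 with the highest mean count, and the 3 genes most like each member. Gnrhr, Esr2, Cyp19a1, Gh, the other paraventricular markers, list genes with an unadjusted p under 0.05 and the shares of all gene pairs were added after values were seen.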

Additional observations from a re-analysis of the deposited data

Results flagged for a closer look

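No library stood apart in the reads of a member. The lowest and the highest library of each of the 4 groups were compared with the rest of their group for the 8 genes, which made 32 groups of values, and in 0 of them was the gap wide enough relative to the range of the group (Dixon's test at 95%). Chance alone gives about 1 in 20. The split of Pdyn in HFD → RC, with 3 libraries low and 2 high, is of a kind that this test cannot pick out. No member had an interaction of earlier and current diet past the threshold.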

How the results depend on the processing

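No paired analysis was possible because the groups share no replicate numbers. The 6 counts of members called were 0 under each of 172 alternatives. Of 502 recomputed log2 fold changes of members 490 kept their direction and 12 changed sign. None passed the threshold, although DESeq2 with its own filter gave no adjusted p for Esr1 in RC NoDS v RC → HFD. The changes of sign were Gnrh1 in RC NoDS v HFD NoDS by limma-voom (−0.0029), and fits without 1 library, whose ranges were −0.12 to 0.022 for Tac2 and −0.027 to 0.56 for Gnrh1 in RC NoDS v HFD NoDS, and −0.15 to 0.037 for Oprk1, −0.16 to 0.041 for Pgr and −0.38 to 0.10 for Gnrh1 between the DS groups.

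The background counts of called genes moved more. In the order RC NoDS v HFD NoDS, DS groups, RC NoDS v RC → HFD, HFD NoDS v HFD → RC, all 4 groups and interaction, they were 10, 1, 5, 9, 19 and 4 by edgeR and 17, 5, 96, 44, 133 and 116 by DESeq2. With DESeq2 adjusted over all genes, chosen after seeing the data, the third was 15 and the others did not change, so that the 96 depends on its filter on mean counts. Leaving out 1 library gave 5 to 14, 1 to 41, 4 to 11, 1 to 13, 9 to 80 and 0 to 124. For the DS groups the Low Filter gave 2, no filter 3 and a robust dispersion 0. For HFD NoDS v HFD → RC these gave 4, 5 and 2, and a fit of only the 2 groups 1. For RC NoDS v RC → HFD a fit of only the 2 groups gave 24. All 4 groups gave 31 without a filter and 12 with a robust dispersion. The interaction gave 15 by limma-voom, 0 with the Low Filter and 2 without TMM. The cause was not tested.

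Pairs of members past the threshold numbered 3, and 2 to 4 with 1 library left out (chosen after seeing the data). Tac2 and Pgr passed on log2(count + 1) (r = 0.64, adjusted permutation p = 0.0466) and without RC NoDS replicate 1, RC → HFD replicate 8 or 10, HFD → RC replicate 13 or HFD NoDS replicate 19, with an adjusted p from 0.0306 to 0.147 over the alternatives. Correlations that changed sign were all weak. Without the 2 farthest libraries r was 0.15 for Tac2 and Oprk1, −0.11 for Pdyn and Tacr3, −0.036 for Tacr3 and Esr1, −0.11 for Tacr3 and Pgr and −0.043 for Oprk1 and Esr1, and on log2(count + 1) it was 0.036 for Oprk1 and Pgr. Without 1 library r ranged from −0.092 to 0.22 for Kiss1 and Pdyn, −0.22 to 0.057 for Tac2 and Oprk1, −0.12 to 0.23 for Tacr3 and Esr1, −0.14 to 0.21 for Tacr3 and Pgr and −0.21 to 0.17 for Oprk1 and Pgr. Read sampling alone gives a CV of 9.72% for Kiss1 and 15% for Gnrh1, against a BCV of 33.9% and 53.3%.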
